A study of Arabidopsis thaliana with 11 samples.

Results

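ROS1, DME, DML2 and DML3 are the 4 DNA demethylase genes of Arabidopsis thaliana, and they are described here by every deposited binding region near them. The members are the 4 TAIR10 loci AT2G36490 (ROS1, listed under the symbol DML1 in the annotation), AT5G04560 (DME), AT3G10010 (DML2) and AT4G34060 (DML3), out of 27444 protein-coding nuclear genes. A locus window ran from 2 kb upstream of the gene start to 1 kb past its end. All 4 genes are accounted for below, and ROS1 alone held a region in its window.

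The regions come from chromatin immunoprecipitation with sequencing on inflorescences of Col-0 plants, all grown on soil with 16 h of light and 8 h of dark. Inflorescence is a bulk tissue of many cell types, so binding in more cells and stronger binding per cell cannot be told apart. Of the 11 libraries, 8 have a peak list used here, in 4 groups of 2. ACD15-FLAG plants carried ACD15.5-3XFLAG and ACD21-FLAG plants ACD21.4-3XFLAG, both in a wild type background. The MBD6-RFP transgene (MBD6-FL-RFP in the titles) was carried by wild type plants and by plants of the acd15 acd21 double mutant. Neither the promoter behind each transgene nor how many plants or lines went into a library is stated in the labels. The 3 control libraries of Col-0 plants with no transgene (1 FLAG, 2 RFP) were left without a list to analyse here and so give no background value. Batch 1 holds every FLAG library and batch 2 every RFP library, so batch and tag cannot be told apart. Anti-FLAG M2 is the labelled antibody of the RFP libraries too. Further, there are merged ACD15 and ACD21 lists and an MBD5/MBD6 list, the parent lists of which belong to no library of the series. Since only peak lists are used, the sequencing depth is unknown. The FLAG lists held 3571 to 10946 regions, the wild type MBD6-RFP lists 1244 and 3492, and the mutant ones 404 and 3987.

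DNA demethylases of this family are bifunctional glycosylases that cut 5-methylcytosine out of DNA, after which base excision repair puts in an unmethylated cytosine. DME is known for its work in the central cell of the female gametophyte, where it sets up imprinting in the endosperm, while ROS1, DML2 and DML3 act in the plant body, with ROS1 known for keeping gene promoters free of methylation spread. The ROS1 gene is itself known as a sensor, because its transcription in Arabidopsis falls when methylation near its start is lost. MBD5 and MBD6 are methyl-CG-binding domain proteins, and ACD15 and ACD21 are alpha-crystallin domain proteins that act with them in silencing. Since the readers bind methylated CG sites, the CG sites of the sequences are shown, but methylation itself was not measured here.

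The 250 bases just upstream of each annotated gene start are given first, because the ROS1 stretch holds the summit of every FLAG region at these genes and the other 3 stretches hold none. They were read from the TAIR10 genome sequence (RefSeq copy TAIR10.1), 5′ to 3′ in the direction of the gene, with each CG site in capitals. The stretches are chr2:15314808-15315057, minus strand, for ROS1, chr5:1308849-1309098, plus strand, for DME, chr3:3088551-3088800, minus strand, for DML2, and chr4:16313116-16313365, plus strand, for DML3.
ROS1: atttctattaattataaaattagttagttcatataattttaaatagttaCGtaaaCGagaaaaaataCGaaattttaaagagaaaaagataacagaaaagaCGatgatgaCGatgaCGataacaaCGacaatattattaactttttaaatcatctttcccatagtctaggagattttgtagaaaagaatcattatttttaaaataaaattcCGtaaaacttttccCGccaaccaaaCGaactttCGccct
DME: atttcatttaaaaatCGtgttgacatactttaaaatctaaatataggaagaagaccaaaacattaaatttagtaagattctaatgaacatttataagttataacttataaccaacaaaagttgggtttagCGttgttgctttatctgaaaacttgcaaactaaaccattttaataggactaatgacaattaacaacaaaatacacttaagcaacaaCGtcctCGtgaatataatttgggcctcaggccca
DML2: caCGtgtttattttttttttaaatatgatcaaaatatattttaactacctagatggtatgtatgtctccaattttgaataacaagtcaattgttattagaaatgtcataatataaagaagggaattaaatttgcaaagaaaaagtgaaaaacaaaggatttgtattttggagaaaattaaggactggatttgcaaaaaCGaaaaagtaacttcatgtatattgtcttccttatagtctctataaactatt
DML3: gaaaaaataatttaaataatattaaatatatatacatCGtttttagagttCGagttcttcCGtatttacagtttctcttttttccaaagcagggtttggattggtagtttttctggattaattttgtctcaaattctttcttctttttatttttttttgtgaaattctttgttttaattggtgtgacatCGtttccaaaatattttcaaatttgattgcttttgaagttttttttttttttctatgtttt

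The ROS1 stretch held 11 CG sites, against 4 in DME, 2 in DML2 and 4 in DML3. Over the same 250 bp of all protein-coding genes the median was 5, with quartiles of 3 and 7, and 9.24% of genes had as many as ROS1 or more. The sites stood in sequence poor in G and C, 26.4% for ROS1, 29.2% for DME, 24.8% for DML2 and 23.6% for DML3. Relative to the count that the C and G content of each stretch predicts, the ratio of observed to expected CG sites was 2.55 at ROS1, 0.758 at DME, 0.541 at DML2 and 1.17 at DML3. The ROS1 ratio was at or above that of 99.9% of 27443 genes with a value, whose median was 0.807, and the DML3 ratio at or above that of 78.3%. These are properties of the genome sequence, with no error between samples.

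A region at the ROS1 start was called in all 4 FLAG libraries. ROS1 lies on chromosome 2 at 15307907 to 15314807, on the minus strand, so its start is the higher coordinate. The ACD15-FLAG regions ran from 15314671 to 15315072 in replicate 1 and from 15314629 to 15315133 in replicate 2. Those of ACD21-FLAG ran from 15314666 to 15315094 in replicate 1 and from 15314680 to 15315030 in replicate 2. The smallest lay within each of the others, so that 351 bp were common to all 4. Each had a single summit, that is, the position of highest enrichment, and these lay at 60 and 65 bp upstream of the start for ACD15 and at 66 and 65 bp for ACD21, replicate 1 first.

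Summit positions of the 2 proteins at ROS1 lay close together, and the test made on them could not separate them. The mean distance upstream of the start was 62.5 ± 3.54 bp for ACD15 and 65.5 ± 0.707 bp for ACD21 (SD, n = 2 libraries each). The difference of -3 bp had a two-sided exact permutation p of 0.667, in a design of 2 against 2 that cannot go below 0.333. With the tie at 65 bp, no regrouping of these 4 values gives a larger difference. A lower p was thus not possible with them, and the test decides nothing. All 4 summits fell within 6 bp of each other. A p above the threshold does not show that the positions are the same.

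The region covered the start itself. Between 223 and 326 bp of it lay upstream and between 128 and 179 bp inside the gene, in exon 1. That exon is 210 bp long (15314598 to 15314807) and wholly 5′ untranslated, since the start codon lies 535 bp into the gene. No FLAG region reached the end of exon 1. The gene next upstream begins 3065 bp away, so the upstream part was intergenic. The MBD5/MBD6 region here, with both proteins as parents, was 770 bp long (15314554 to 15315323), held all 505 bp that any FLAG library covered, and ended 253 bp inside the gene, past the first exon.

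**Figure D1:**
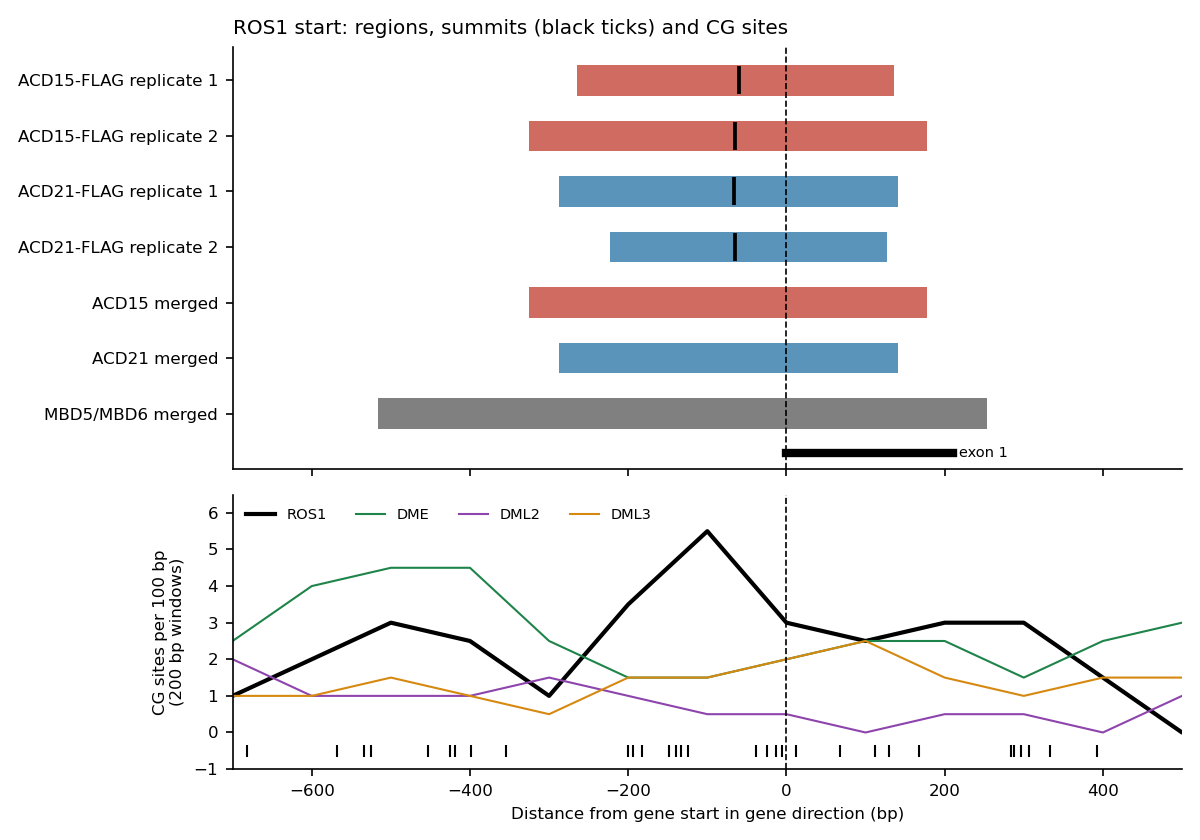
Regions at the ROS1 start in the 4 FLAG lists and the 3 merged lists (bars, x axis in bp from the gene start, summits as black ticks, exon 1 as a thick line), and below them CG sites per 100 bp in 200 bp windows for the 4 genes, with single ROS1 CG sites as ticks. The 4 summits sit 60 to 66 bp upstream of the start, in the windows where ROS1 has its highest CG density near the start, 5.5 sites per 100 bp.

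A summit so near a gene start in every FLAG library was rare. With a limit of 100 bp on either side of the start, set after the ROS1 positions were known, 60 of 27444 protein-coding genes had one in all 4 FLAG lists (0.219%), and ROS1 was the only one of the 4 demethylase genes. All of the other 59 had an MBD5/MBD6 region in the 250 bp upstream of the start, as did ROS1, against 8.82% of all genes. The 59 were picked for FLAG regions at the start, and such overlap was common elsewhere too. In all, 3001 ACD15-FLAG replicate 1 regions called in all 4 FLAG libraries lay in regions of both MBD5 and MBD6. The shortest FLAG list held 3571 regions. The overlap is thus not read as particular to these genes. For the 59 genes the median ratio of observed to expected CG sites in that stretch was 1.06 and the median number of CG sites 7, both below the ROS1 values.

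Enrichment at ROS1 stood high in 3 of the FLAG lists and lower in the fourth. Fold enrichment is the authors' value from their peak caller and is used here only to place a peak within its own list. The ROS1 folds were 5.15 and 8.10 in ACD15-FLAG and 5.16 and 3.41 in ACD21-FLAG, replicate 1 first, where the medians of the lists were 2.37, 2.73, 2.45 and 2.36. They stood at percentiles 95.2 and 97.3 of the ACD15 lists and 91.0 and 79.2 of the ACD21 lists. The -log10 q values were 89.2, 180 (179.6), 85.0 and 36.6 in the same order. ACD21-FLAG replicate 2, the lowest on each of these measures, was also the shortest FLAG list. As these lists differ in length, the order of the folds between libraries is not read as a difference in binding.

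**Figure D2:**
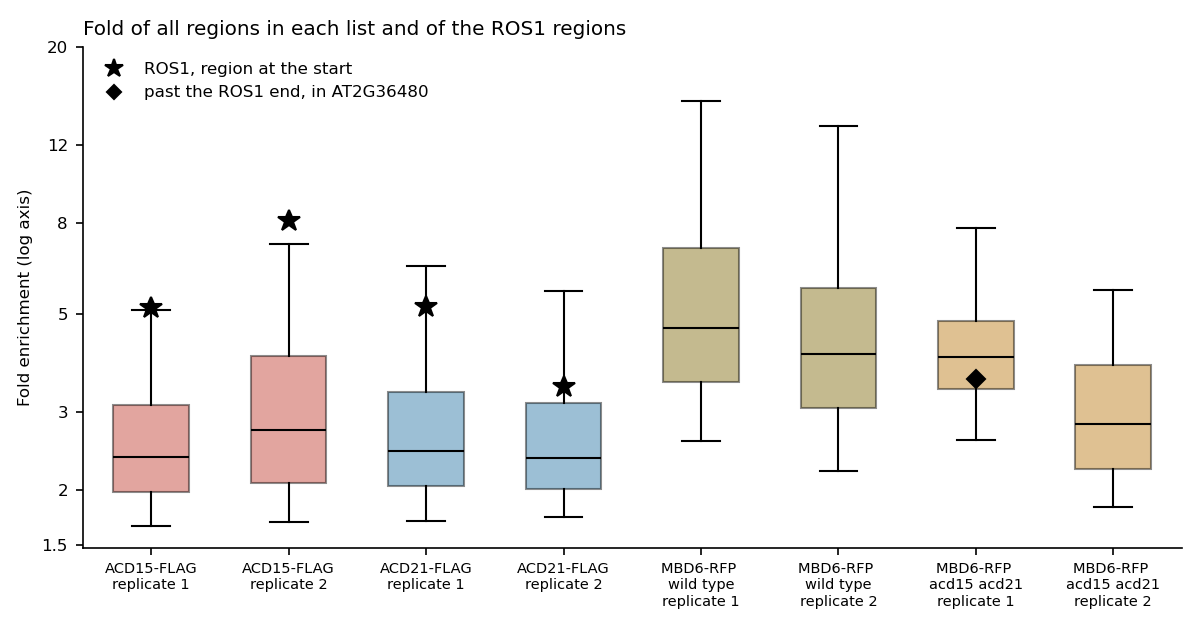
Fold enrichment (y axis, log scale) of all regions in each of the 8 library lists, with boxes for the quartiles, a line for the median and whiskers from the 5th to the 95th percentile, and the ROS1 regions marked. The stars for ROS1 lie above the upper quartile in all 4 FLAG lists, and the diamond, a region past the ROS1 end in 1 MBD6-RFP list, lies below the median of its list.

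Within the bound regions, ROS1 was ordinary in width and CG density and stood out in the ratio of observed to expected CG. Widths of 402, 505, 429 and 351 bp lay at percentiles 56.5, 57.4, 61.6 and 53.3 of the FLAG lists (ACD15 replicates 1 and 2, then ACD21). The merged ACD15 region held 16 CG sites in 505 bp, 3.17 per 100 bp, where the median of that list was 2.75. The merged ACD21 region held 15 in 429 bp, 3.50 per 100 bp, against a median of 3.31, and the MBD5/MBD6 region 21 in 770 bp, 2.73 per 100 bp, against 2.71. Observed over expected, the ratio was 1.79, 1.95 and 1.57 in these 3 regions, and the list medians were 0.981, 1.09 and 0.914. The ROS1 ratio was at or above that of 96.0% of the merged ACD15 regions and 95.4% of the merged ACD21 regions. Among the FLAG library lists the share was lowest in ACD21-FLAG replicate 2, at 90.3%, where the list median was 1.22.

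No MBD6-RFP list held a region at the ROS1 start, in either genotype. Among 3001 ACD15-FLAG replicate 1 regions that were called in all 4 FLAG libraries and lay in a region of both MBD5 and MBD6, 40.6% overlapped a peak of MBD6-RFP wild type replicate 1 (95% exact binomial interval over regions, 38.8 to 42.4), 14.7% one of wild type replicate 2, 20.6% one of acd15 acd21 replicate 1 and 2.90% one of acd15 acd21 replicate 2. Among the 200 regions nearest to ROS1 in ACD15-FLAG replicate 1 fold, 4.75 to 5.55, those shares were 56.0% (48.8 to 63.0), 31.0% (24.7 to 37.9), 35.5% (28.9 to 42.6) and 4.50% (2.08 to 8.37). The intervals treat the regions of a library as independent and do not measure the spread between replicates of a genotype, which was wider. At least 1 MBD6-RFP list held a peak at 1565 of the 3001 regions (52.1%) and at 153 of these 200 (76.5%). ROS1 was among the regions where none did. No call at ROS1 does not show that MBD6-RFP was not bound there, because the depth of these libraries is unknown.

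The numbering of the peaks shows where a ROS1 peak could have been taken out after calling, since some numbers are missing from the lists. Peak numbers rose along each chromosome in every library list without exception. Around the ROS1 start no number was missing between the neighbouring peaks of wild type replicate 2 (199 kb apart), of acd15 acd21 replicate 1 (49.4 kb) or of acd15 acd21 replicate 2 (455 kb), so these 3 lists show no removed peak there. In wild type replicate 1, 12 numbers were missing between neighbours 600.1 kb apart, and whether one of them lay at ROS1 was not tested. The absence from the wild type is thus free of such gaps in replicate 2 alone, a list of 1244 regions.

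Past the ROS1 end, 1 library had a region in the window. In MBD6-RFP acd15 acd21 replicate 1 a peak of 328 bp lay on chromosome 2 at 15307271 to 15307598, with its near edge 309 bp past the gene end and a fold of 3.55, at percentile 32.0 of its list. Its summit fell in a coding exon of the next gene, AT2G36480, annotated as a Pcf11-like protein of the pre-mRNA cleavage complex. A second peak of the same library lay in another coding stretch of AT2G36480, outside the window, at 15305685 to 15306043 with a fold of 4.48. The peak inside the window overlapped no wild type peak, no ACD15 region and no MBD5/MBD6 region, and 52.5% of the 3987 peaks of that library lay outside the MBD5/MBD6 regions. It was absent from acd15 acd21 replicate 2, so the 2 mutant libraries differ here and it is a single observation.

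DME, on chromosome 5 at 1309099 to 1318520, plus strand, held no region in its window of 12422 bp in any of the 11 lists. It is the longest of the 4 genes, at 9422 bp with 20 exons in the transcript used. The nearest FLAG region lay 3918 to 4009 bp past its end in the 4 lists at the end of the next gene, SIR. Among MBD6-RFP lists the nearest peak was 22.2 to 91.9 kb away. One peak number was missing between the neighbours of the DME window in ACD15-FLAG replicate 2, 4 in MBD6-RFP wild type replicate 1 and 10 in acd15 acd21 replicate 1, and none in the other 5 library lists. Whether those removed peaks lay in the window was not tested.

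DML2, on chromosome 3 at 3081735 to 3088550, minus strand, held no region in its window, but several lists had one just beyond it. The nearest edge of the merged ACD15 region lay 1055 bp past the gene end, 55 bp outside the limit, and the MBD5/MBD6 region, with both parents, 65 bp outside. In the library lists it was called in ACD15-FLAG replicate 2 (3079969 to 3080680, fold 2.98, percentile 56.7) and in ACD21-FLAG replicate 1 (3080043 to 3080307, fold 1.97, percentile 20.7). MBD6-RFP was called there in replicate 1 of both genotypes, at 3079999 to 3080423 in wild type (fold 3.15, percentile 15.9) and at 3079961 to 3080313 in acd15 acd21 (fold 4.65, percentile 72.0). The other FLAG replicates and MBD6-RFP replicate 2 of both genotypes had no region there, so each group had it in 1 of 2 libraries. Around the DML2 window 2 peak numbers were missing in MBD6-RFP wild type replicate 1 and none in the other 7 library lists, and whether a removed peak lay in the window was not tested. The closest annotated gene is EDA31, known from embryo sac development, and all 4 summits lay in the intergenic stretch between the ends of the 2 genes.

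The 265 bp that all 7 of these lists share are given because they show where CG sites sit in the DML2 flank, at chr3:3080043-3080307, minus strand, with CG sites in capitals.
DML2 flank: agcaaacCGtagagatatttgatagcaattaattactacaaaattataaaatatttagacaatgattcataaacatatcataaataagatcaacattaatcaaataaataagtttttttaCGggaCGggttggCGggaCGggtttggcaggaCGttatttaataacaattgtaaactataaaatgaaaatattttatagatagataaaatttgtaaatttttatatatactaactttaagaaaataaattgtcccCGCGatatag
This stretch held 8 CG sites, 3.02 per 100 bp, of which 5 stand close together in the middle. Over the whole merged ACD15 region the density was 1.69 per 100 bp, at percentile 16.9 of that list and below its median of 2.75.

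DML3, on chromosome 4 at 16313366 to 16319426, plus strand, had no region in its window either. Among the library lists the nearest was an ACD15-FLAG replicate 2 region at 16320845 to 16321072, 1419 bp past the gene end and 419 bp outside the limit, with a fold of 2.41 at percentile 39.8. An MBD5/MBD6 region with MBD6 as its only parent overlapped it and lay nearer, from 16320807 to 16321065, with its near edge 1381 bp past the gene end and 381 bp outside the limit. In the other 3 FLAG libraries the nearest region was 13.9 to 109 kb away. The nearest MBD6-RFP peak was 6.11 kb past the end in wild type replicate 1 (fold 4.64) and 6.17 kb in acd15 acd21 replicate 1 (fold 5.74). In replicate 2 it was 410 and 1746 kb away. Among the neighbours of the DML3 window 1 peak number was missing in ACD15-FLAG replicate 1 and in replicate 1 of MBD6-RFP in each genotype. Whether those removed peaks lay in the window was not tested. In acd15 acd21 replicate 2 no peak followed on the chromosome, so that list could not be checked. The DML3 promoter and gene body were free of called regions in all lists, as were those of DME and DML2.

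**Figure D3:**
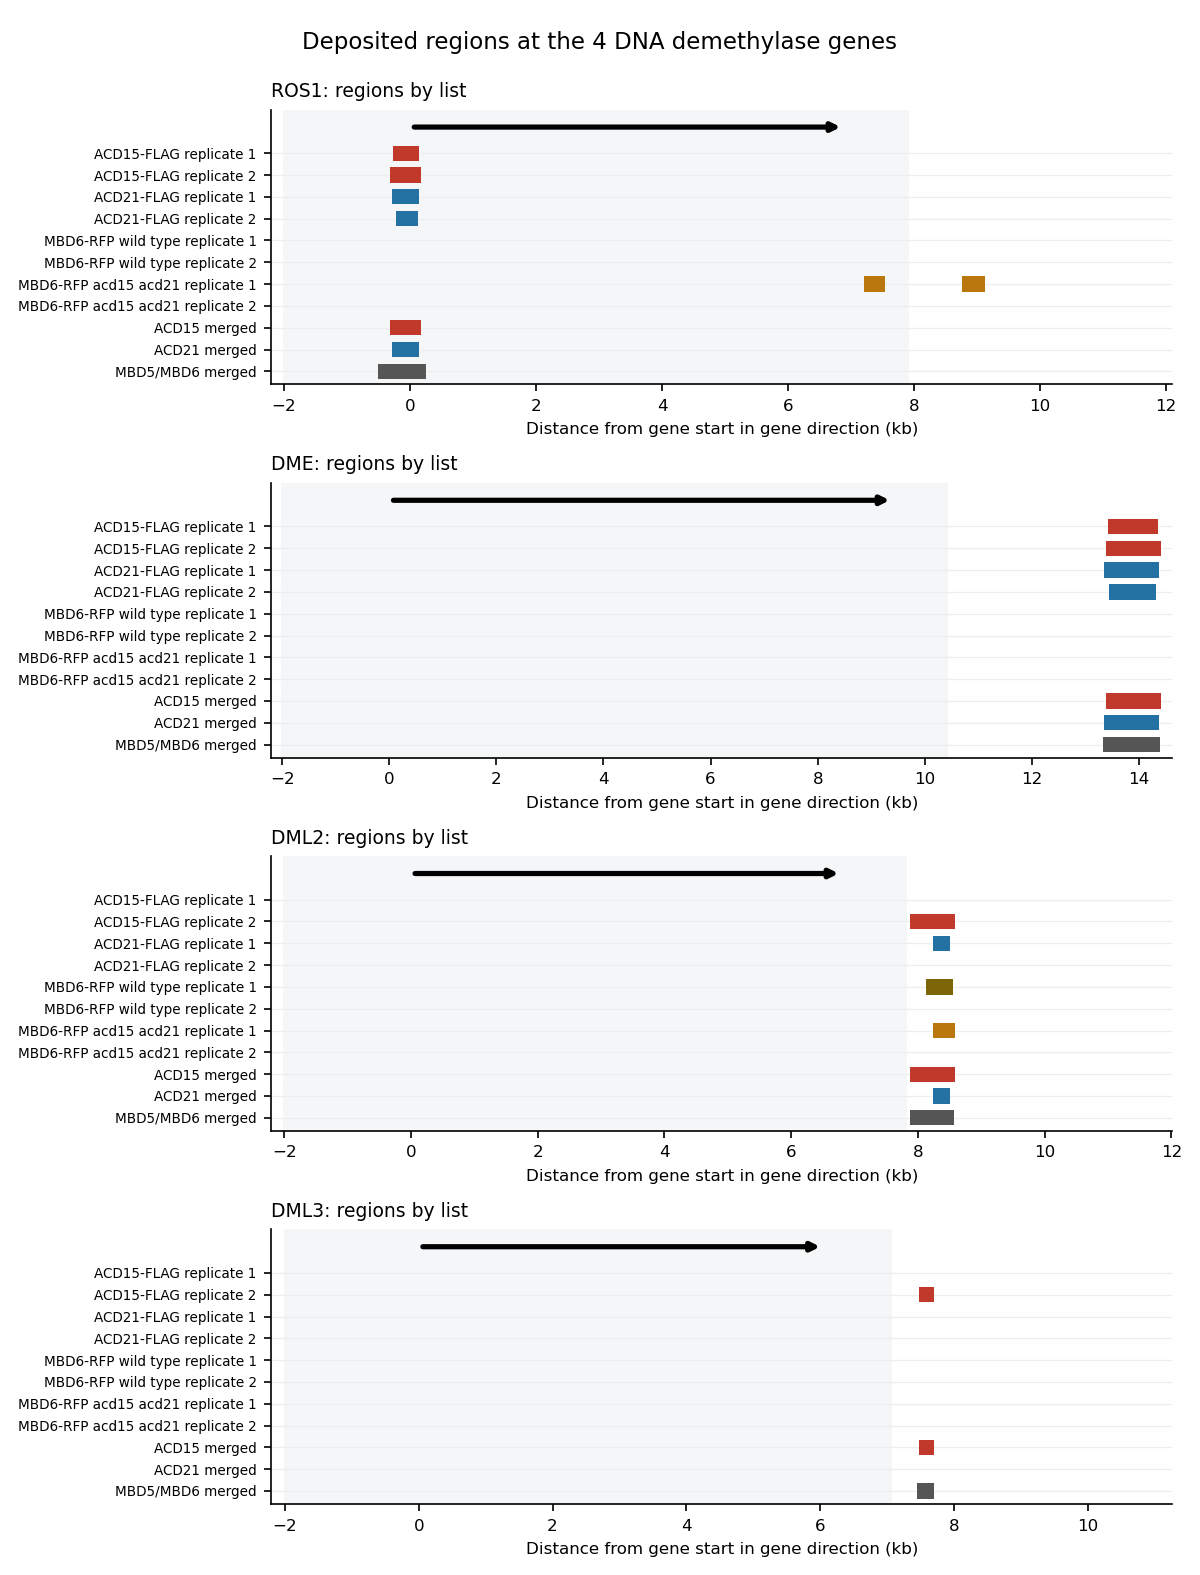
Regions of the 8 library lists and 3 merged lists (rows) around the 4 genes, with the x axis in kb from the gene start in gene direction, the gene as an arrow and the locus window shaded. Bars at the start are seen at ROS1 only, while those near DME, DML2 and DML3 lie past the gene end and outside the window.

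Read against all genes, 1 member of 4 with a region is no result about the family. The merged ACD15 list had a region in the window of 30.3% of protein-coding genes, the merged ACD21 list of 20.8% and the MBD5/MBD6 list of 37.6%, and each held 1 of the 4 members. Windows of long genes hold more regions: among 686 genes between 6061 and 9422 bp, the lengths spanned by the members, the shares were 34.1%, 26.2% and 47.2%. In the library lists the share of all genes was 19.3% and 29.8% for ACD15-FLAG and 20.8% and 12.4% for ACD21-FLAG, with 1 of 4 members in each. For MBD6-RFP the shares in wild type were 9.67% and 2.19%, with 0 of 4 members. In the double mutant they were 13.6% and 0.791%, with 1 and 0 of 4 members. Among the 686 long genes, ACD15-FLAG reached 22.2% and 33.7%, ACD21-FLAG 26.1% and 16.6%, MBD6-RFP wild type 12.4% and 2.48%, and the mutant 21% and 1.17%. A region in both ACD15-FLAG libraries, as at ROS1, was found in 18.9% of genes and in 21.7% of the long ones, and one in both ACD21-FLAG libraries in 12.3% and 16.5%. All 4 FLAG libraries had a region in 11.7% of genes and 15.6% of the long ones. Either wild type MBD6-RFP library had one in 11.2% and 14.3%, with 0 members, and either mutant library in 14.3% and 21.6%, with 1 member.

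**Figure D4:**
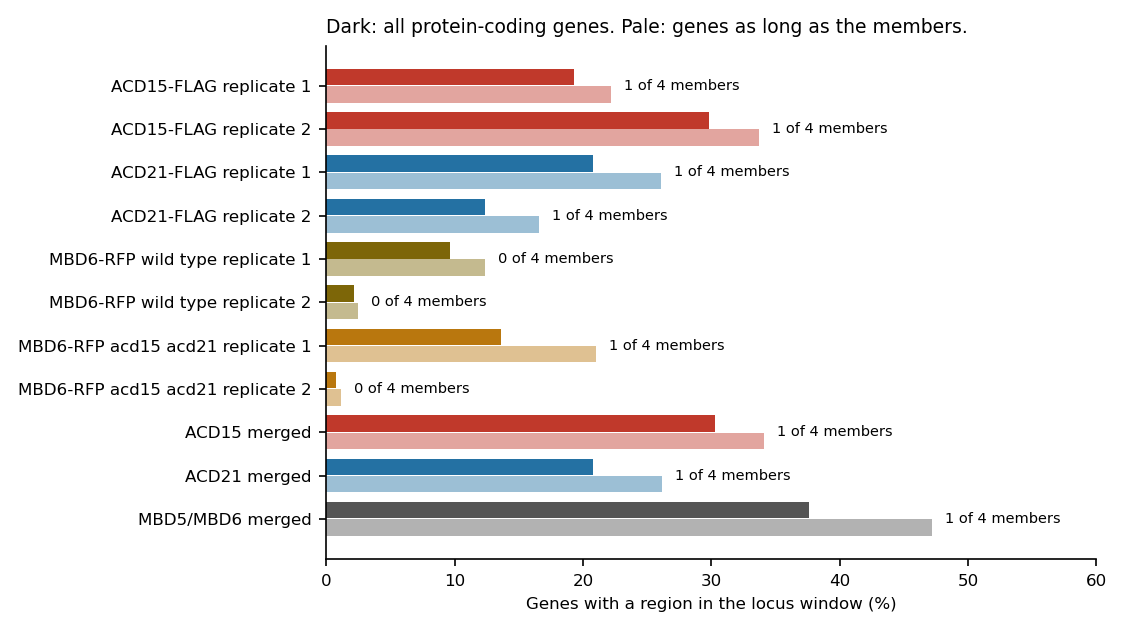
Share of genes with a region in the locus window (x axis, %) for each list, over all protein-coding genes (dark bars) and over the 686 genes as long as the members (pale bars), with the number of the 4 members beside each. The count of 1 in 4 lies near the shares of the merged lists, 20.8% to 37.6%.

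The genes most like ROS1 in their calls were of varied kinds. In the ROS1 window, all 4 FLAG lists and MBD6-RFP acd15 acd21 replicate 1 had a peak, and no other library list did. These 8 library calls were shared by 150 of 27444 protein-coding genes, ROS1 included, of which 54 carry a symbol. The MBD6-RFP peak is the one past the ROS1 end, with its summit in AT2G36480, so likeness rests partly on a peak in that gene. Likeness was measured as the distance between the percentiles of the highest fold over the 5 lists with a peak. It takes no account of where in the window a peak lies. The nearest were PTR6, a transporter of the major facilitator superfamily (17.9 percentile points), pEARLI4, a phospholipase-like gene (19.5), HAF01, which encodes a predicted histone acetyltransferase (25.9), PAL4, a phenylalanine ammonia-lyase gene (27.8), and RS31, a splicing factor gene (33.0). All 5 also had a region in the 3 merged lists. None of them had its FLAG summits within 100 bp of the start. Counted from the start, with negative values upstream, those of PTR6 lay between -1117 and -611 bp and those of pEARLI4 between -920 and -912 bp. Those of the strongest HAF01 regions lay between -682 and -661 bp. The PAL4 summits lay 871 to 885 bp into the gene, and those of RS31 at 3389 to 3404 bp, past the gene end. At pEARLI4 alone the MBD6-RFP peak overlapped the FLAG regions.

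Of 22 other genes of active demethylation, 4 held a region of the merged ACD15 list in the window (18.2%, against 30.3% of all genes), 3 one of the merged ACD21 list (13.6% against 20.8%) and 6 an MBD5/MBD6 region (27.3% against 37.6%). These shares lay below those of all genes, but they rest on 3 to 6 of 22 chosen genes. They are thus no result about the pathway. Among 8 genes that handle the DNA after base removal, or remove other damaged bases, only ARP, an apurinic endonuclease, had any. Its region lay past the gene end, with the summit 3938 to 3954 bp from the start of a gene of 3554 bp, and its folds were 1.91 and 3.52 with ACD15, then 2.57 and 2.24 with ACD21. MET18 and AE7, which serve the assembly of iron-sulfur clusters that the glycosylases need, had none in any list. SSRP1 and SPT16, the subunits of the FACT histone chaperone, each had an MBD5/MBD6 region centred in a coding exon and no library region.

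Among the 6 genes that guide ROS1 to its sites, IDM2 and IDM1 had library regions and ROS3, MBD7, PIE1 and the HSP20-like gene AT1G20870 had none. IDM2, an alpha-crystallin domain partner of the histone acetyltransferase IDM1, had a region in its body with folds of 1.94 in ACD15-FLAG replicate 2 and 2.03 in ACD21-FLAG replicate 1, both below the list medians. ACD15-FLAG replicate 2 had a further region past its end, with a fold of 1.72. A far stronger region reached over its start in ACD21-FLAG alone, on chromosome 1 at 20453893 to 20456003 in replicate 1, with folds of 8.66 and 6.82 at percentiles 98.6 and 98.2. Most of it covered the neighbouring HSP20-like gene AT1G54850. No ACD15-FLAG region overlapped this ACD21-FLAG region, and the MBD5/MBD6 region at IDM2, 20452243 to 20453325, ended short of it. Whether reads from the ACD21 transgene enter the ACD21-FLAG region was not tested and cannot be seen in a list of peaks. That region is thus not read as binding at IDM2. IDM1 had a peak past its end in acd15 acd21 replicate 1, with a fold of 3.20 at percentile 18.7 of the list.

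Among 4 genes whose products read methylation or act with such readers at promoters, SUVH1 and the DnaJ-domain gene AT2G01710 had regions and SUVH3 and the DnaJ-domain gene AT5G64360 had none. AT2G01710 was called in all 4 FLAG lists, upstream of its start. The ACD15 folds were 2.84 and 5.17, the ACD21 folds 2.77 and 2.26. It was also called in MBD6-RFP wild type replicate 1, with a fold of 9.68 at percentile 87.3, and in no acd15 acd21 list. Its summits, 548 to 917 bp upstream, fell in or just outside the neighbouring pseudogene AT2G01700. SUVH1, a SET-domain protein that binds methylated DNA, had a region 422 bp upstream in ACD15-FLAG replicate 2 only (fold 2.61), and is named because it completes the count of 4. Of the 22 genes, ARP and AT2G01710 were the ones with a region in all 4 FLAG libraries, as ROS1 had, and the ROS1 percentile was above theirs in each of those lists.

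**Figure D5:**
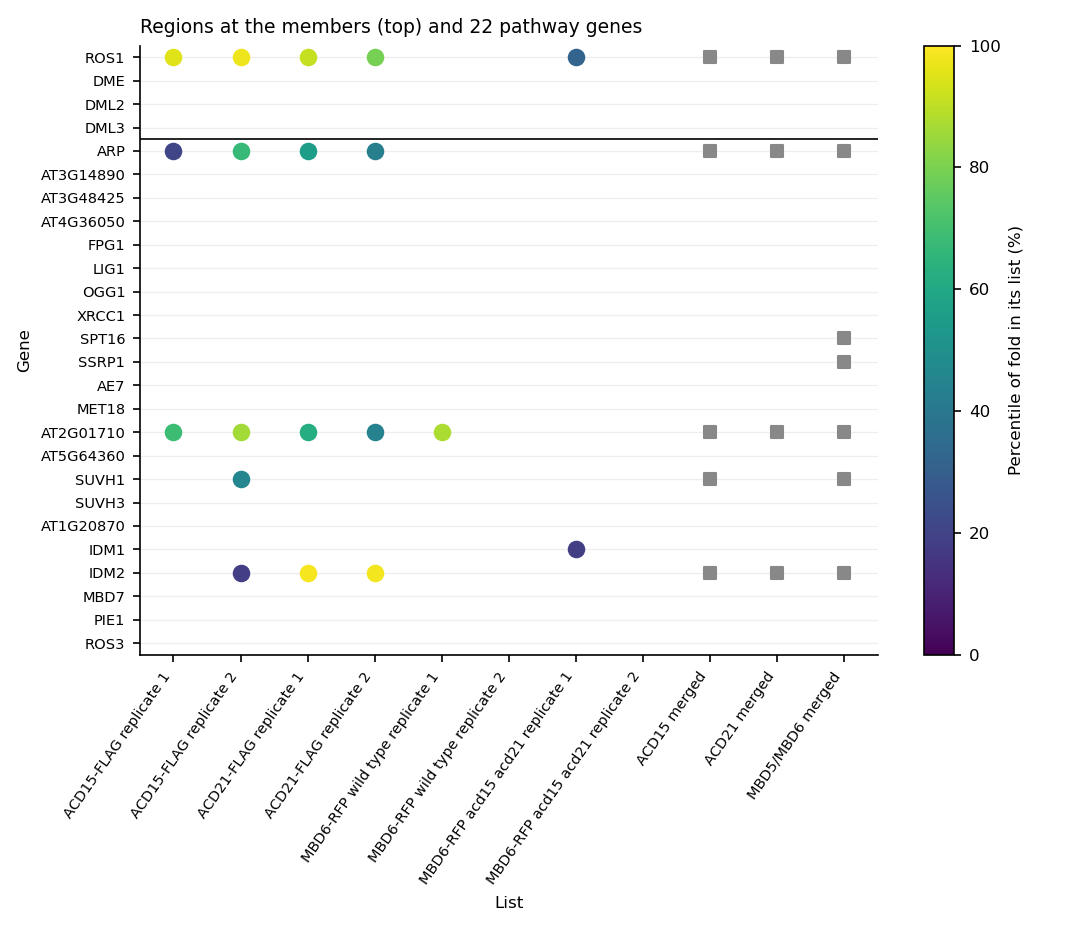
Regions in the locus windows of the 4 demethylase genes (above the line) and 22 other genes of active demethylation (rows) by list (columns). Circles are library regions coloured by the percentile of their fold within the list (the highest where there are several), and grey squares are regions of the merged lists. ROS1 has the highest percentiles of the row set in the ACD15-FLAG lists, 95.2 and 97.3.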

How the data were processed

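The submitters' processing notes name TAIR10 as the build and list MACS2 2.1.0, HOMER, deepTools 3.0.2, Bowtie2, Trim Galore and Picard, with no settings. Each library list deposited by the authors gives per peak a score (10 times -log10 q), the fold enrichment (a ratio), and -log10 of p and q. Per the file headers, mergePeaks joined the 2 replicate lists of ACD15 and those of ACD21. FLAG lists are named as having Col0 subtracted. Peak numbers are missing from several lists, and what was removed from the RFP lists is not stated.

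Entries with the same start and end were joined, the entry with the highest score giving fold and summit, and starts were made 1-based. No peak ended beyond its chromosome in the TAIR10.1 reference. An overlap of at least 1 bp counted. The window join was tested on simulated data. Peak lists hold no depth, so no precision from depth is given. Replicates may be technical, since the labels name no separate plants. Named genes were the 4 members, pathway genes with a region in both replicates of a FLAG group or in any MBD6-RFP list, neighbours with a peak in a member window, and the 5 genes with a symbol and the calls of ROS1 whose percentiles lay nearest. Other pathway genes, and SIR and EDA31 beside regions just outside the windows, fall outside this rule and were named after their values were seen, to complete the counts or to place a region. The members and lists were chosen with earlier results of these data known. Python 3.11.15, pandas 2.3.3, numpy 2.4.6 and SciPy 1.17.1 were used. Alternatives were other windows, overlaps and peak thresholds, single replicates and a replicate block.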

Additional observations from a re-analysis of the deposited data

How the results depend on the processing

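The count of 1 member with a region in the merged ACD15, merged ACD21 and MBD5/MBD6 lists was the same under the 2 planned windows and the 50% overlap, and for ACD15 and ACD21 also with a -log10 q of at least 5, a fold of at least 3, either replicate alone (1 to 1) and both required. With a window to 2 kb past the gene end, chosen after seeing the data, the counts were 3 for ACD15, 2 for ACD21, 3 for MBD5/MBD6, 1 for MBD6-RFP wild type and 2 for acd15 acd21. Under that window 33.8%, 23.5%, 41.5%, 12.9% and 16.5% of all protein-coding genes had a region, in the same order. The acd15 acd21 count of 1 fell to 0 with a window from 1 kb upstream to the gene end, with 2 kb upstream only, with a -log10 q of at least 5 and with both replicates required, and ran from 0 without replicate 1 to 1 without replicate 2. With a fold of at least 3, pathway genes with a region numbered 2 for ACD15 and 1 for ACD21, against 4 and 3. The summit difference at ROS1, -3 bp, was 8.75 bp between region centres (two-sided exact permutation p = 0.667), and ran from 0 without replicate 1 to -6 without replicate 2. With the replicate number as a block it was -3 bp (exact sign-flip p = 1). The replicate 2 summits of the 2 proteins coincide, so that test could give no other p and decides nothing. The numbers are not shown to pair samples: over 3001 shared regions, replicate differences in log2 fold of ACD15 and ACD21 had r = -0.15. CG density in the ROS1 region was 3.17 per 100 bp, 4.33 in 300 bp around the summit and 3.50 in the ACD21 replicate 1 region. Depth is unknown, so regions not called in the short lists are not shown to be unbound.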

Other observations

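The gene next to DME, SIR, which encodes sulfite reductase, held a region at its end in all 4 FLAG lists and the 3 merged lists. In ACD15-FLAG it lay on chromosome 5 at 1322525 to 1323449 in replicate 1 (fold 4.28) and at 1322479 to 1323504 in replicate 2 (fold 7.03). In ACD21-FLAG it lay at 1322438 to 1323466 (fold 6.17) and 1322529 to 1323408 (fold 4.65). These folds stood at percentiles 90.3, 94.6, 94.5 and 90.8 of their lists, and each library gave 2 summits in the region. The strongest summit of each fell in an exon of SIR annotated as untranslated. The region held 36 CG sites in each of the 4 lists. No MBD6-RFP list held a peak there.

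Few promoters are as rich in CG for their composition as that of ROS1. Besides ROS1, 30 protein-coding genes had a ratio of observed to expected CG sites at least as high in the 250 bp upstream of the start, a limit chosen after the ROS1 value was seen. Of these, 5 (16.7%) had a region in that stretch in all 4 FLAG libraries and 14 (46.7%) an MBD5/MBD6 region. Over all 27444 genes the shares were 2.21% and 8.82%. Of 2535 other genes with at least as many CG sites as ROS1, whatever their composition, 4.58% had a region in all 4 FLAG libraries and 10.2% an MBD5/MBD6 region. These shares are given as a description, with no test.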
